A study of Homo sapiens with 8 samples.

Results

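H3K27ac regions of chromosome 11 were described across 2 pancreatic cancer lines. Peaks of the lines that overlapped by 1 bp or more were joined into merged regions, and all those on chromosome 11 were taken, which gave 795 of 18678 regions. A region was called MP2_HDAC1_OE-only or MP2_NTC-only when all its peaks came from 1 line, and shared when it held peaks of both. The chromosome was selected on these same peak lists, because its excess of MP2_HDAC1_OE-only regions was already known. The counts of unique and shared regions and the rank shifts below are therefore a description of what was selected, and no test was made on them.

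Both lines derive from MIA PaCa-2, an epithelial line from a human pancreatic carcinoma, and both stably carry the CRISPR activation (SAM) components delivered by lentivirus. MP2_HDAC1_OE carries a guide that activates *HDAC1* and MP2_NTC carries a scrambled, non-targeting guide. Each line had 2 H3K27ac samples and 2 control samples made without antibody. The authors deposited 1 list of reproducible peaks per line, pooled over both samples, so the lists hold no replicates and their depth is unknown. Differences between cultures of the same line cannot be told apart from differences between the lines. Intervals on shares are 95% Wilson intervals and cover counting error only.

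Acetylation of lysine 27 on histone H3 marks active promoters and enhancers. HDAC1 is a deacetylase that removes acetyl groups from histones and acts within corepressor complexes. Chromosome 11 carries a gene-dense part on its long arm and imprinted genes near the end of its short arm. It also carries a cluster of beta-globin genes and many olfactory receptor genes. The long non-coding RNAs NEAT1 and MALAT1 lie on it as well and are abundant in the nuclei of most cells.

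The promoters below show what sort of sequence lay at or beside the strongest differences. They are the 2 promoters with the highest-ranked MP2_HDAC1_OE-only regions, the 2 with the highest-ranked MP2_NTC-only regions, and those of the shared regions with the largest rank shift in each direction, taken where RefSeq (GRCh38.p14) gave a promoter sequence that the region overlapped. Each run holds the 250 bases before the transcription start, read 5′ to 3′ on the strand of the gene. A region may cover only part of a run, so a marked match can lie outside the region. This holds for *FAU* (region 65121918 to 65122169), *C11orf24* (68272160 to 68273168) and *ZDHHC5* (57668042 to 57668497). Capitals mark matches on either strand to GGGCGG (the GC box), CCAAT and CCGGAAG (the core of ETS factor motifs).
ZDHHC5 (chr11:57667864-57668113, plus strand): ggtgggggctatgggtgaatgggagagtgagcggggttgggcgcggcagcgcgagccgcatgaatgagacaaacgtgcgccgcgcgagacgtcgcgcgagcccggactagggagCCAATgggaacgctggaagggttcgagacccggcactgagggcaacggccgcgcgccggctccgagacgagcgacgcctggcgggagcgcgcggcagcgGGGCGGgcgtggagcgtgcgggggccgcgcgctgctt
AMBRA1 (chr11:46594024-46594273, minus strand): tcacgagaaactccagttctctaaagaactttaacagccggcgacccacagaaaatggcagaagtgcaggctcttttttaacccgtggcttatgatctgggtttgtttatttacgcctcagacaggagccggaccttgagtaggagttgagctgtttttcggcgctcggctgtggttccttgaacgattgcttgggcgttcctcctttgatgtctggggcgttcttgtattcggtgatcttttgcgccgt
FAU (chr11:65122135-65122384, minus strand): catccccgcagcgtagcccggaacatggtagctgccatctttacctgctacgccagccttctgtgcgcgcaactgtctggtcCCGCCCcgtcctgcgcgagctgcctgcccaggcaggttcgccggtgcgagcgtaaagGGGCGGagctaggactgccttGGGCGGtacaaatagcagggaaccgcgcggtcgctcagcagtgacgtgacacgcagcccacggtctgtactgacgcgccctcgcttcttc
ANAPC15 (chr11:72112696-72112945, minus strand): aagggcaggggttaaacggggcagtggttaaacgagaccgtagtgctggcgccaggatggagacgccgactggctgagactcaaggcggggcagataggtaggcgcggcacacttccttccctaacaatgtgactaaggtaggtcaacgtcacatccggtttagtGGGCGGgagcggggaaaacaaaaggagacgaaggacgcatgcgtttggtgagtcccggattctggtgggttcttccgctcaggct
C11orf24 (chr11:68271974-68272223, minus strand): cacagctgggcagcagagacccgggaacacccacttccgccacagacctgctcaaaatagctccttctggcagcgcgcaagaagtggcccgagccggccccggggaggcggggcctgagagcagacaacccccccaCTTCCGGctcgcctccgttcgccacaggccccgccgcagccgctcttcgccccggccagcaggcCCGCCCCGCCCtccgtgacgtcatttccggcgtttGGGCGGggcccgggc
NAP1L4 (chr11:2992330-2992579, minus strand): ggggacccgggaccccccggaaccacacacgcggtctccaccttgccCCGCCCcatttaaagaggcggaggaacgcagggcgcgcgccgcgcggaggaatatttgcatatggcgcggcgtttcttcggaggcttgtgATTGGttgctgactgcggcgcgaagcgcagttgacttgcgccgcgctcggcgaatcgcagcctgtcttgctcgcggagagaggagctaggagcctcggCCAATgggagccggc
The promoter of *AMBRA1* held none of the 3 motifs and had a GC content of 50%, whereas the other 5 had GC contents of 58.0% to 73.6% and 1 to 3 GC boxes each. Missing letters say only that they do not occur in this window.

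GC-rich sequence was shared by all classes of promoter with a region. The median GC content of the 250 bases was 65.2% at 113 starts of genes with MP2_HDAC1_OE-only regions alone, 62.8% at 77 starts of genes with MP2_NTC-only regions alone and 65.2% at 395 starts with a shared region. It was 51.6% at 686 starts of chromosome 11 with no region. A GC box was found at 68.1%, 70.1% and 70.6% of the starts in the first 3 classes and at 30.5% of starts with no region, against 53.7% of all promoters in the table. CCAAT was found at 35.4%, 32.5%, 38.5% and 34.4% in the same order, against 32.7% of all promoters. CCGGAAG was found at 15.9%, 16.9%, 23% and 3.35%, against 10.7% of all promoters. The intervals of the MP2_HDAC1_OE-only and MP2_NTC-only classes overlapped for each of the 3 motifs.

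Of the 795 regions on chromosome 11, 281 (35.3%, interval 32.1% to 38.7%) were unique to MP2_HDAC1_OE, against a background of 28.6% over all regions. A further 145 (18.2%, 15.7% to 21.1%) were unique to MP2_NTC, against a background of 20.7%, and 369 (46.4%) were shared. Among the unique regions, 66.0% (61.3% to 70.3%) were thus MP2_HDAC1_OE-only, compared with 57.6% (56.6% to 58.6%) on all other chromosomes. Had the share of the other chromosomes held for the 426 unique regions, 245 would have been MP2_HDAC1_OE-only, which is 35.5 fewer than counted.

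Chromosome 11 had the highest value of 23 chromosomes for this share, although the next was close and chromosome 11 ranked 2 of 23 when single peaks, not merged regions, were counted. Chromosome 12 had 300 MP2_HDAC1_OE-only and 157 MP2_NTC-only regions, a share of 65.6% (61.2% to 69.9%). The lowest share was 52.0%, on chromosome 22. The single peaks gave the same picture, with 1075 peaks of MP2_HDAC1_OE and 829 of MP2_NTC on chromosome 11, a ratio of 1.30. On all other chromosomes the ratio was 1.10, with a range of 1.01 to 1.26. The sequence covered by peaks was 551 kb in MP2_HDAC1_OE and 440 kb in MP2_NTC, a ratio of 1.25, compared with 1.08 on the other chromosomes.

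**Figure D1:**
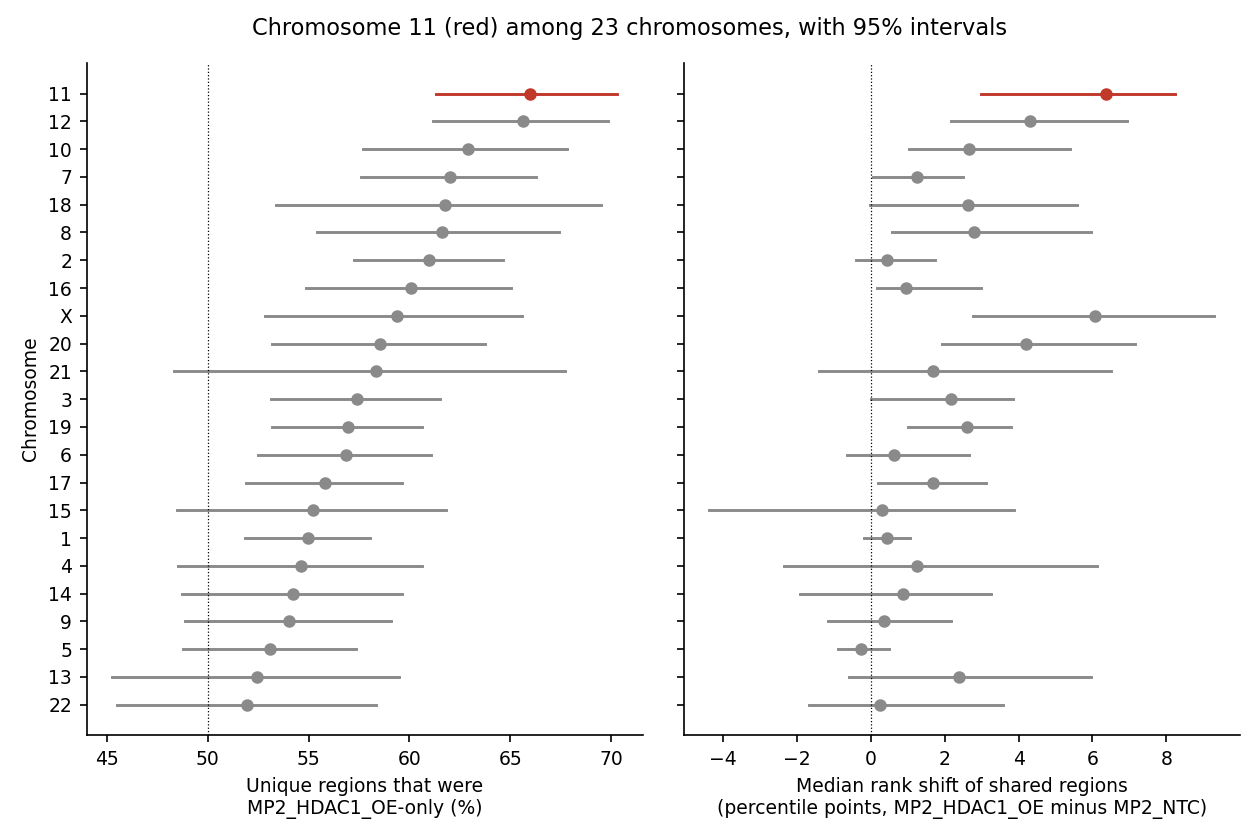
Share of unique regions that were MP2_HDAC1_OE-only (left, percent) and median rank shift of shared regions (right, percentile points, MP2_HDAC1_OE minus MP2_NTC) for each of 23 chromosomes. Points are values, bars are 95% intervals that cover counting error only, and chromosome 11 is in red, at 66.0% and 6.37 points, above but overlapping chromosome 12 on the left and chromosome X on the right.

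Few members lay close to the overlap rule that separates shared from unique regions. The widest overlap between peaks of the 2 lines was under 100 bp in 7 of the 369 shared regions, with a lowest value of 6 bp and a median of 492 bp. The gap to the nearest peak of the other line was under 100 bp in 16 of the 426 unique regions, with a median of 10296 bp.

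The excess of MP2_HDAC1_OE-only regions was found on both arms. The boundary between the arms was set at 53 Mb, inside a stretch from 48.1 Mb to 57.3 Mb that held no region. The short arm had 267 regions, of which 104 were unique to MP2_HDAC1_OE and 51 to MP2_NTC. The long arm had 528 regions, with 177 unique to MP2_HDAC1_OE and 94 to MP2_NTC. The share of MP2_HDAC1_OE-only among unique regions was 67.1% (59.4% to 74.0%) on the short arm and 65.3% (59.5% to 70.7%) on the long arm, so the arms were not distinguishable. Of the 136 regions by which MP2_HDAC1_OE-only outnumbered MP2_NTC-only, 39.0% lay on the short arm and 61.0% on the long arm.

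Along the chromosome, most bins of 5 Mb leaned the same way. Of 26 bins with a region, 20 had more MP2_HDAC1_OE-only regions, 3 had more MP2_NTC-only regions and 3 had equal numbers. The share of bins with more MP2_HDAC1_OE-only regions was 76.9% (57.9% to 89.0%), compared with 299 of 552 bins (54.2%) on the other chromosomes. Among bins with at least 20 regions it was 12 of 13 on chromosome 11 and 203 of 297 (68.4%) elsewhere, and over all occupied bins it was 23 of 26 on chromosome 12, 16 of 37 on chromosome 5 and 12 of 16 on chromosome 16. The 3 bins that leaned to MP2_NTC were 20 to 25 Mb with 0 against 1 region, 40 to 45 Mb with 0 against 3, and 55 to 60 Mb with 4 against 5. Differences of this size in a single bin are within counting error.

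**Figure D2:**
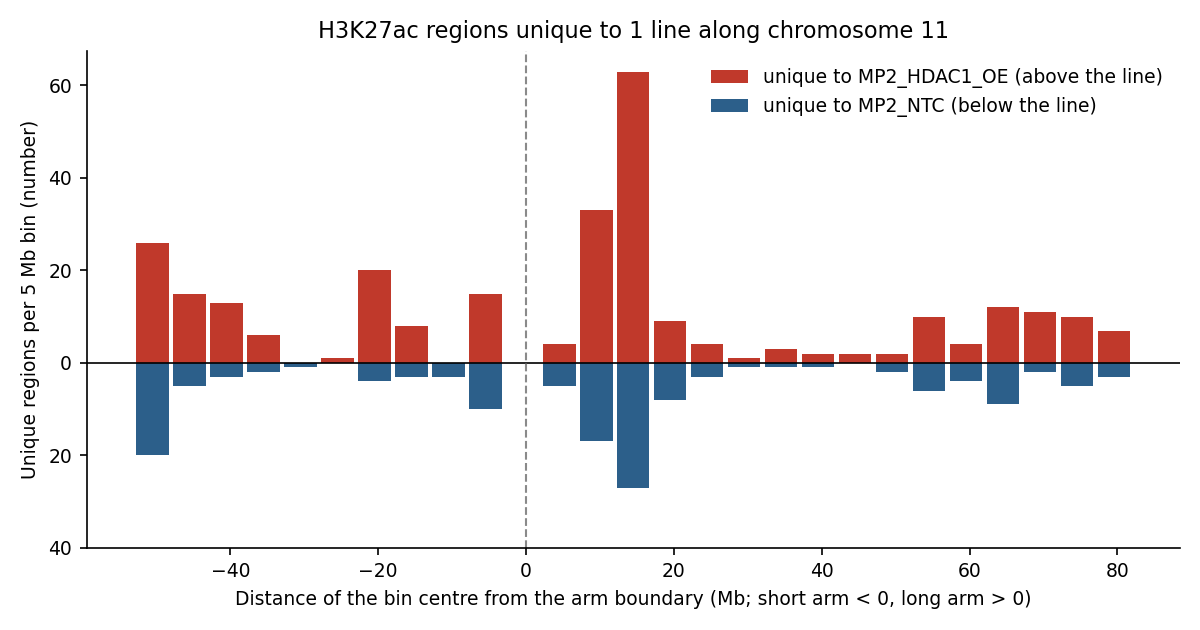
Number of regions unique to MP2_HDAC1_OE (red, above the line) and to MP2_NTC (blue, below the line) in each 5 Mb bin of chromosome 11, by the distance of the bin centre from the arm boundary in Mb. The tallest pair, 12.0 to 17.0 Mb into the long arm, has 63 MP2_HDAC1_OE-only and 27 MP2_NTC-only regions, and red exceeds blue in 20 of 26 occupied bins.

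The excess was nevertheless uneven in size. The bins at 30 to 35 Mb, 60 to 65 Mb and 65 to 70 Mb together held 68 of the 136 regions of excess (50%). The bin at 65 to 70 Mb had 63 MP2_HDAC1_OE-only and 27 MP2_NTC-only regions (70%, 59.9% to 78.5%), that at 60 to 65 Mb had 33 and 17 (66.0%), and that at 30 to 35 Mb had 20 and 4 (83.3%, 64.1% to 93.3%). These 3 bins were picked as those with the largest excess, so leaving them out lowers the share by selection. Outside them there were 165 MP2_HDAC1_OE-only and 97 MP2_NTC-only regions, a share of 63.0% (57.0% to 68.6%). The interval includes the 57.6% of the other chromosomes, but those were not trimmed in this way, so no conclusion is drawn. Leaving out any 1 bin gave a share of 64.9% to 67.1%.

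Adjoining bins formed stretches with different shares. From 5 to 20 Mb there were 34 MP2_HDAC1_OE-only and 10 MP2_NTC-only regions (77.3%), and from 30 to 40 Mb there were 28 and 7 (80%). The end of the long arm, from 120 to 135 Mb, had 28 and 10 (73.7%). In contrast, the numbers were nearly equal from 40 to 50 Mb with 15 and 13, from 70 to 80 Mb with 13 and 11, and at 0 to 5 Mb with 26 and 20 (56.5%). The counts therefore spanned the chromosome but were not even along it. These stretches were drawn after the bins had been seen, and the shares within them are descriptions.

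At a finer scale, 52 of 95 occupied windows of 1 Mb had more MP2_HDAC1_OE-only regions, 19 had more MP2_NTC-only regions and 24 had equal numbers. The largest differences were at 65 to 66 Mb with 27 and 11 regions, at 34 to 35 Mb with 16 and 3, at 66 to 67 Mb with 16 and 5, and at 13 to 14 Mb with 10 and 0.

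The window from 13 to 14 Mb held 10 regions, all of them unique to MP2_HDAC1_OE and made of 17 peaks, and no peak of MP2_NTC. They lay at *BMAL1*, a core transcription factor of the circadian clock, at the promoters of *BTBD10* and *FAR1*, a reductase that makes fatty alcohols, and near *SPON1*, which encodes the matrix protein F-spondin. Most were of low to middle rank in their list. The highest, inside *BMAL1* (13336192 to 13337211), was at percentile 71.7 of the MP2_HDAC1_OE signals, and the lowest, 69.1 kb from *BMAL1*, was at percentile 9.63. Percentile here means the rank of the strongest peak of a region among all peaks of the same list.

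A broader group lay between *NAT10* and the end of *CD44*. It held 34 regions, of which 21 were MP2_HDAC1_OE-only, 6 were MP2_NTC-only and 7 were shared, with 40 peaks of MP2_HDAC1_OE and 21 of MP2_NTC. Near *EHF*, an epithelial ETS factor, a run of MP2_HDAC1_OE-only regions 20.8 to 33.7 kb from the gene reached percentile 78.1 (34599261 to 34599513). Beside it were an MP2_NTC-only region at percentile 11.3 and a shared region at percentile 75.9 in MP2_HDAC1_OE and 64.5 in MP2_NTC. In and beyond *PDHX*, a subunit of the pyruvate dehydrogenase complex, MP2_HDAC1_OE-only regions reached percentile 60.9. At *CAT*, the catalase gene, the promoter held an MP2_HDAC1_OE-only region at percentile 53. The promoter of *CD44*, a cell surface receptor for hyaluronan, had a shared region at percentile 66.9 in MP2_HDAC1_OE and 70.9 in MP2_NTC, and the gene body held 2 MP2_HDAC1_OE-only regions at percentiles 50.5 and 29.5 and 1 MP2_NTC-only region at percentile 13.5.

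Around *AMBRA1*, a regulator of autophagy, 13 regions included 8 unique to MP2_HDAC1_OE and 2 unique to MP2_NTC, although the whole bin around it had 15 and 10. At the promoter of *AMBRA1* were 3 MP2_HDAC1_OE-only regions, the strongest of which (46593976 to 46594997) was at percentile 88.7 and 22244 bp from the nearest MP2_NTC peak. The neighbouring shared region at the paired promoters of *ATG13*, part of the kinase complex that starts autophagy, and *HARBI1* ranked higher in MP2_NTC, at percentile 69.3, than in MP2_HDAC1_OE, at 29.3.

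The stretch with *NEAT1* and *MALAT1* was densely covered in both lines, with 38 regions made of 50 MP2_HDAC1_OE and 45 MP2_NTC peaks. MP2_HDAC1_OE-only regions made up 15 of them, MP2_NTC-only regions 8 and shared regions 15. The strongest peak ranked higher in MP2_NTC at *NEAT1* and in MP2_HDAC1_OE at *MALAT1*. At the promoter of *NEAT1*, the scaffold of nuclear paraspeckles, the main shared region (65421336 to 65422323) was at percentile 59.2 in MP2_HDAC1_OE and 95.9 in MP2_NTC, and an adjacent MP2_NTC-only region was at percentile 89.3. The same promoter window held an MP2_HDAC1_OE-only region (65420734 to 65421254) at percentile 76.6, its strongest MP2_HDAC1_OE peak, and a second shared region at 36.7 in MP2_HDAC1_OE and 49.0 in MP2_NTC. At the promoter of *MALAT1*, an RNA of nuclear speckles, the shared region (65497816 to 65498992) was at percentile 99.4 in MP2_HDAC1_OE and 89.7 in MP2_NTC. Between the genes, a shared region at 65478400 to 65480899 was at percentile 88.6 in MP2_HDAC1_OE and 42.2 in MP2_NTC. These 4 loci were chosen after the bins had been seen.

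The unique regions were also divided by their distance to the nearest peak of the other line. This distance is not independent of the selected excess, since MP2_HDAC1_OE-only regions were measured against the sparser list of 829 peaks and MP2_NTC-only regions against the denser list of 1075, so the values are descriptions. Among unique regions over 10 kb from the nearest peak of the other list, 153 were MP2_HDAC1_OE-only and 63 were MP2_NTC-only (70.8%, 64.4% to 76.5%), compared with 57.6% (55.9% to 59.2%) on the other chromosomes. Within 10 kb the share was 61.0% (54.2% to 67.3%), against 57.7% elsewhere, and within 2 kb it was 57.1% (48.4% to 65.4%), against 56.3%. Of the MP2_HDAC1_OE-only regions, 54.4% (48.6% to 60.2%) lay over 10 kb from an MP2_NTC peak, compared with 40.6% elsewhere. For the MP2_NTC-only regions the values were 43.4% (35.7% to 51.6%) and 40.7%.

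Regions outside promoters also leaned further to MP2_HDAC1_OE than those at promoters. A promoter window ran from 2 kb before to 1 kb after the start of a gene. Where no start was given, a window from 2 kb outside to 1 kb inside was set at both gene ends. Outside all promoter windows there were 115 MP2_HDAC1_OE-only and 36 MP2_NTC-only regions (76.2%, 68.8% to 82.3%), compared with 61.1% on the other chromosomes. At promoters of protein-coding genes there were 150 and 94 (61.5%, 55.2% to 67.4%), compared with 53.7% (52.1% to 55.3%). Seen by class, 59.1% of MP2_HDAC1_OE-only, 75.2% of MP2_NTC-only and 88.3% of shared regions were at a promoter of any gene, and each value was above that of the other chromosomes, where they were 48.5%, 55.3% and 79.0%.

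The median signal rank of the unique regions of chromosome 11 was close to that on the other chromosomes. The median percentile was 40.5 for MP2_HDAC1_OE-only and 39.3 for MP2_NTC-only regions, compared with 41.6 and 39.1 on the other chromosomes. The share of MP2_HDAC1_OE-only regions was 63.6% (48.9% to 76.2%) among unique regions at or above percentile 75, compared with 59.1% (55.8% to 62.3%) elsewhere. Below percentile 50 it was 63.8% (57.8% to 69.3%), compared with 56.5% (55.2% to 57.8%). Both shares of chromosome 11 lie below the 66.0% of all its unique regions. Regions from percentile 50 up to 75 were not counted separately. By their medians, most unique regions were of middle or low rank in both lines.

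**Figure D3:**
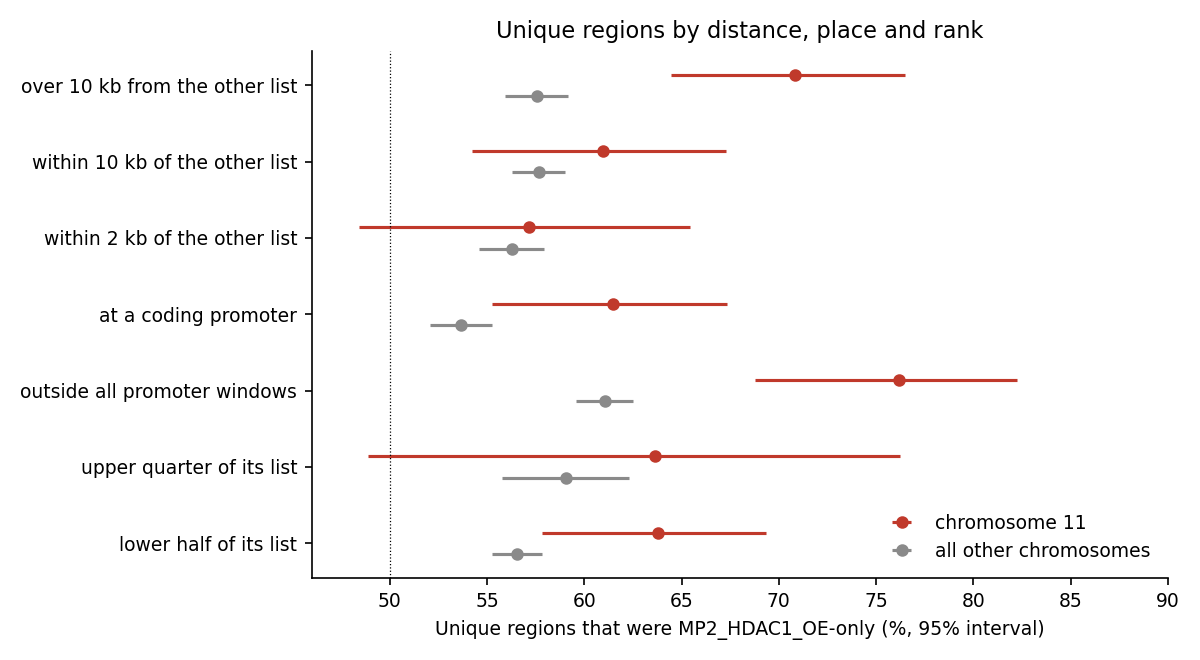
Share of unique regions that were MP2_HDAC1_OE-only (percent, with 95% Wilson intervals) by distance to the nearest peak of the other line, place and rank in the list, for chromosome 11 (red) and all other chromosomes (grey). The widest separations are outside promoter windows (76.2% against 61.1%) and over 10 kb from the other list (70.8% against 57.6%).

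The shared regions also ranked higher in MP2_HDAC1_OE. The rank shift of a region is its percentile in the MP2_HDAC1_OE list minus that in the MP2_NTC list. Over 369 shared regions the median shift was 6.37 points (2.98 to 8.24), compared with 1.37 over shared regions of the other chromosomes, and 233 regions (63.1%) had a shift above 0, compared with 54.3% elsewhere. A shift of at least 20 points towards MP2_HDAC1_OE was seen in 84 regions (22.8%), against a background of 19.7%. By this share chromosome 11 ranked 5 of 23, and the highest value was 25.1%, on chromosome 12. A shift of at least 20 points towards MP2_NTC was seen in 45 (12.2%), against a background of 14.7%. Chromosome X had nearly the same median shift, at 6.07 points, and the lowest was -0.26, on chromosome 5. The rank shift is relative to all peaks of a list, so it does not say whether the absolute signal changed.

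**Figure D4:**
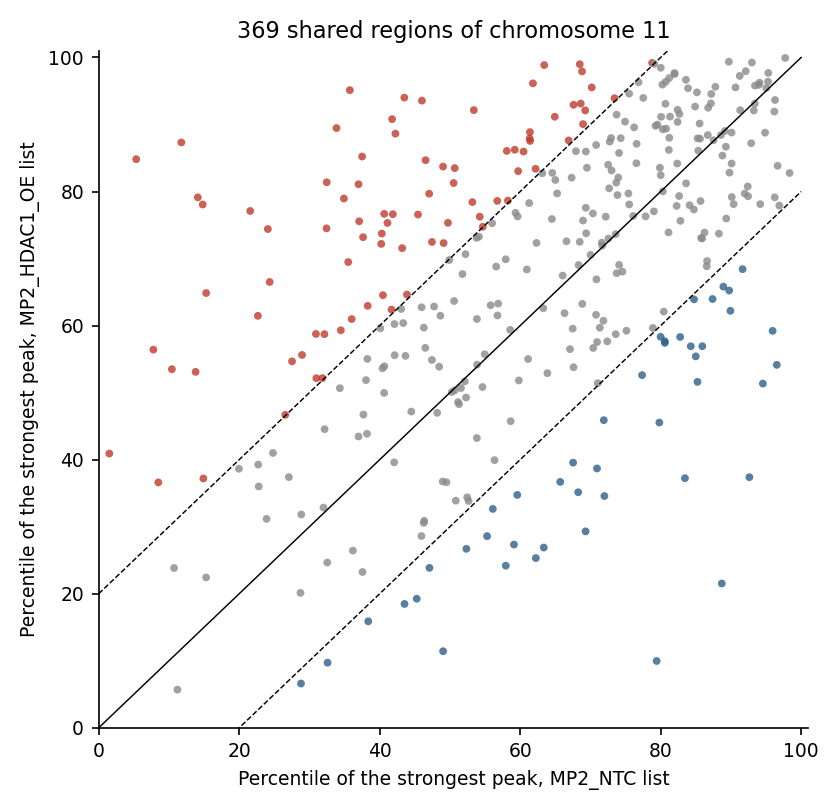
Percentile of the strongest peak of each of 369 shared regions on chromosome 11 in the MP2_NTC list (x axis) and the MP2_HDAC1_OE list (y axis). The solid line marks equal percentiles and the dashed lines a shift of 20 points, with 84 regions at or above the upper line in red and 45 at or below the lower line in blue.

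At coding promoters the median shift was 6.41 points (2.68 to 8.99) over 303 shared regions, compared with 0.89 (0.55 to 1.37) over the other chromosomes pooled. By chromosome, the promoter shift was next highest on chromosome X, at 5.53 points (0.67 to 8.89), and chromosome 12, at 3.57 (0.75 to 6.32), whose intervals overlap that of chromosome 11, and lowest on chromosome 5, at -0.89. Outside all promoter windows it was 5.99 (-6.08 to 13.1) over 43 regions, compared with 4.02 elsewhere. In the 89 regions with exactly 1 peak of each line it was 4.60 (-0.89 to 8.12). Elsewhere it was 2.35 (1.36 to 3.22) over 1934 such regions, a value inside the interval of chromosome 11.

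By position, the shift was larger on the long arm, at 7.83 points (4.01 to 10.5), than on the short arm, at 4.45 (-0.36 to 7.14), though the intervals overlapped. Of 20 bins with at least 5 shared regions, 15 had a median shift above 0 and 5 had one below 0. It was 9.84 points from 60 to 70 Mb and 10.5 points from 120 to 135 Mb. At 75 to 80 Mb it was 15.5 points (-2.40 to 28.4) over 15 shared regions, an interval that includes 0. Of these regions, 6 ranked at least 20 points higher in MP2_HDAC1_OE and 0 as much higher in MP2_NTC. The counts of unique regions there were 4 and 3. The lowest median of these bins was at 90 to 95 Mb, at -19.6 points over 5 shared regions, of which 2 ranked at least 20 points higher in MP2_NTC and 0 in MP2_HDAC1_OE. At 45 to 50 Mb, with more shared regions, the median shift was -6.50 points (-18.8 to 6.41) and 7 of 25 shared regions ranked at least 20 points higher in MP2_NTC. That bin had more MP2_HDAC1_OE-only than MP2_NTC-only regions, so the counts and the median shift differed in direction there, although the interval of the shift includes 0.

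**Figure D5:**
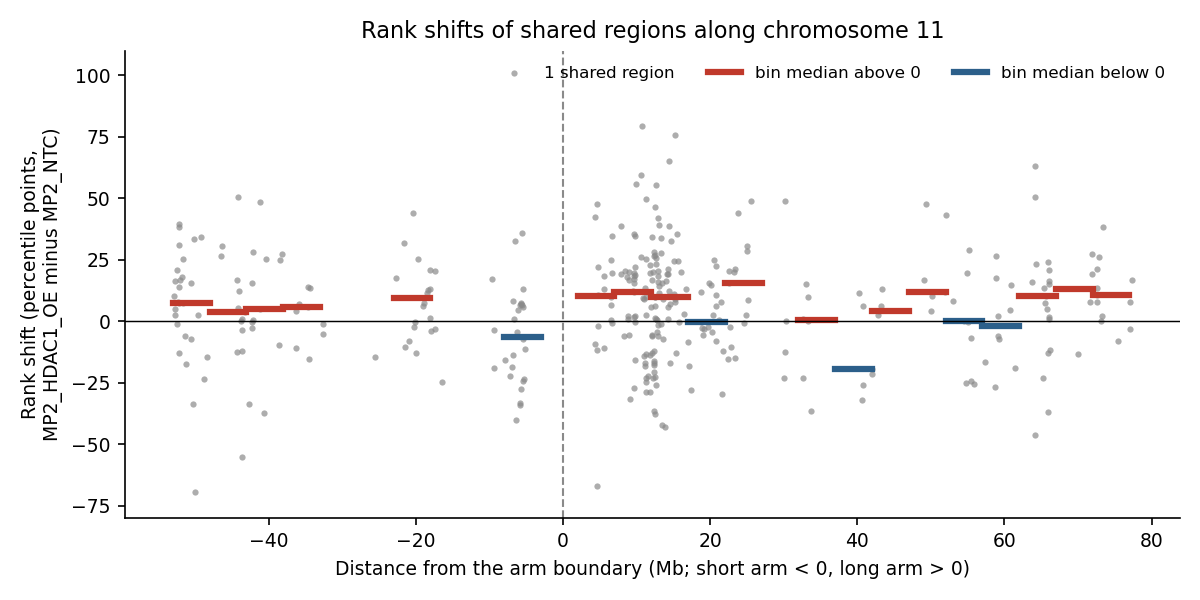
Rank shift of each shared region (grey points, percentile points, MP2_HDAC1_OE minus MP2_NTC) by its distance from the arm boundary in Mb, with the median of each 5 Mb bin that held at least 5 shared regions as a bar, red above 0 and blue below 0. Bars are above 0 in 15 of 20 bins, and the bin just before the boundary gap on the short arm is at -6.50 points.

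Single shared regions differed far more than the median. The largest shift towards MP2_HDAC1_OE was at *SPINDOC*, which encodes a partner of the chromatin reader SPIN1, at percentile 84.8 in MP2_HDAC1_OE and 5.34 in MP2_NTC. The promoter of *C11orf24*, printed above, was at 87.3 in MP2_HDAC1_OE and 11.8 in MP2_NTC. The region at *PPP1CA*, a catalytic subunit of protein phosphatase 1, and *TBC1D10C*, a GTPase-activating protein, was at 79.1 and 14.1. The region at *SIDT2*, a lysosomal membrane protein, was at 78.1 and 14.8, and that at *ATL3*, a GTPase that shapes the endoplasmic reticulum, was at 95.1 and 35.8.

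The largest shifts towards MP2_NTC were of similar size. At *NAP1L4*, a histone chaperone of the imprinted 11p15 domain, the shared region was at percentile 9.97 in MP2_HDAC1_OE and 79.4 in MP2_NTC. At *ZDHHC5*, a palmitoyltransferase, the shared region upstream of the start was at 21.5 and 88.7. The start itself lay in an MP2_HDAC1_OE-only region (57668042 to 57668497) at percentile 90.7. At this promoter each line thus had a strong peak, at different positions. The MP2_NTC peak nearest to the MP2_HDAC1_OE-only region, at 221 bp, lay outside the upstream shared region, which ended at 57667318. The promoter window held 2 shared regions in all. The region 19.9 kb from *IPO7*, an importin, was at 37.4 and 92.6, and that at *SIK3*, a salt-inducible kinase, was at 37.2 and 83.5. The region at *RCE1*, the protease that processes prenylated proteins such as Ras, and *TOP6BL* was at 51.4 and 94.5.

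The highest-ranked MP2_HDAC1_OE-only region of the chromosome (65486837 to 65487124) was at percentile 95.5, at the long non-coding RNA *LINC02736* in the stretch between *NEAT1* and *MALAT1*, and 1028 bp from the nearest MP2_NTC peak. It was followed by regions at *PTDSS2*, a phosphatidylserine synthase (450582 to 450879), at percentile 91.2, then *ZDHHC5* and *AMBRA1* as given above. Then came a region at percentile 87.5 at *DDB1* and its neighbour *TKFC* (61333247 to 61333730). *DDB1* encodes a subunit of a complex that binds damaged DNA and is linked to a ubiquitin ligase. The next were at *PHRF1* at percentile 84.7, 23.4 kb from *WEE1*, the kinase that holds cells before mitosis, at 84.1, and at *RPS13*, a ribosomal protein gene, at 83.6. The last of the 10 were at *RNASEH2C*, a subunit of ribonuclease H2, and *NEU3*, a sialidase of the plasma membrane, at 82.7 each. The distance of these 10 to the nearest MP2_NTC peak ran from 27 bp at *PHRF1* to 238813 bp at *NEU3*.

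The highest-ranked MP2_NTC-only region (1947299 to 1948166) was at *MRPL23*, a mitochondrial ribosomal protein gene beside the imprinted domain, at percentile 95.4 and 173379 bp from the nearest MP2_HDAC1_OE peak. The region at *VPS37C*, a subunit of the ESCRT-I sorting complex, was at percentile 86.4, and that at *FAU*, which encodes a ribosomal protein, and *MRPL49* was at 85.9. Regions at *NEAT1* (65422328 to 65422839) and in its gene body (65426226 to 65427045) were at 89.3 and 85.7. Those at *ANAPC15*, a subunit of the anaphase-promoting complex, *CLNS1A*, a chaperone of splicing factor assembly, and *ZDHHC24* with *ACTN3* were at 84.7, 82.7 and 82.4. The others lay 16.7 kb from *OR4D9* at 83.7 and 23.9 kb from *WNT11*, at a pair of tRNA genes, at 80.3. The distance of these 10 to the nearest MP2_HDAC1_OE peak ran from 41 bp at *NEAT1* to 173379 bp at *MRPL23*. It was 147 bp at *FAU*, 369 bp at the tRNA genes and 413 bp in the gene body of *NEAT1*. The promoter window of *FAU* also held an MP2_HDAC1_OE-only region, at percentile 33.2.

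Protein-coding genes of chromosome 11 followed the regions. Of 1301 genes, 116 (8.92%, 7.49% to 10.6%) had MP2_HDAC1_OE-only regions alone in their promoter window, against a background of 6.28%. MP2_NTC-only regions alone were found at 65 genes (5.00%, 3.94% to 6.32%), against a background of 5.24%. A further 16 genes had unique regions of both lines and no shared region, 349 (26.8%) had a shared region, compared with 36.4% of genes on the other chromosomes, and 755 (58.0%) had none. The genes with none included all 171 olfactory receptors and all 5 beta-globin genes that were looked up.

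Lists of genes by function were counted by their promoter windows, and regions elsewhere in a gene were left out. Where no start was given, a counted region may lie at the far end of the gene. Among the genes named below, this holds for *RHOG*, *RASSF7*, *POLD3*, *BARX2*, *FOSL1*, *CCND1*, *PHLDA2*, *KCNQ1* and *MUC5B*, among others. Over all coding genes of the genome, 6.28% had MP2_HDAC1_OE-only regions alone, 5.24% had MP2_NTC-only regions alone, 35.8% had a shared region and 51.4% had none. The lists hold 2 to 24 genes, apart from the olfactory receptors, so a difference of 1 or 2 genes from these shares sets no list apart.

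Of 20 genes for small GTPases and their regulators, 1 had MP2_HDAC1_OE-only regions alone, near the 6.28% of all genes. It was *ARHGEF12*, an activator of RhoA, at percentile 72.6. MP2_NTC-only regions alone were found at 3, *RHOG* at percentile 56.3, *RAB39A* at 55.5 and *RASSF7*, a Ras association protein, at 35.0, beside the 5.24% of all genes. The promoters of *HRAS* and *RAB1B* had unique regions of both lines, 8 genes had a shared region and 6 had none.

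Among 18 chromatin factors, 15 had a shared region, compared with 35.8% of all coding genes and 26.8% of those on chromosome 11. *MEN1*, which encodes the tumor suppressor menin, had MP2_HDAC1_OE-only regions alone, at percentile 65.0, and *KMT2A*, a histone H3 lysine 4 methyltransferase, had unique regions of both lines. *MTA2*, a subunit of the NuRD complex that contains HDAC1, had a shared region at percentile 98.5 in MP2_HDAC1_OE and 80 in MP2_NTC. *SSRP1*, a subunit of the histone chaperone FACT, was at 66.5 and 24.3, whereas *INCENP*, of the chromosomal passenger complex, was at 27.3 and 59.1.

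All 11 DNA repair genes had a region, and 8 had a shared one, beside the same 35.8% of all coding genes. *DDB1* and *MRE11*, a nuclease that acts at double-strand breaks, at percentile 36.5, had MP2_HDAC1_OE-only regions alone. *FANCF*, of the Fanconi anemia core complex, had MP2_NTC-only regions alone at percentile 55.9. The shared promoter of *ATM*, the kinase that signals double-strand breaks, and *NPAT* was at percentile 97.9 in MP2_HDAC1_OE and 68.8 in MP2_NTC. *POLD3*, a subunit of DNA polymerase delta, ranked higher in MP2_NTC, at 55.4 and 85.0.

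Of 24 transcription factors, 16 had no region in the promoter window, compared with 51.4% of all coding genes. These 16 include *BMAL1*, which held a region further inside the gene, and *EHF*, which had regions outside the gene, as given above. *NFRKB* at percentile 53.3, *PAX6* at 36.6 and *BARX2* at 32.8 had MP2_HDAC1_OE-only regions alone, and *CREB3L1* had MP2_NTC-only regions alone, at 12.5. *FOSL1*, a subunit of AP-1, had shared regions, the strongest peaks of its window being at 93.9 in MP2_HDAC1_OE and 73.4 in MP2_NTC, and *RELA*, a subunit of NF-kB, was at 83.0 and 59.7.

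Of 12 genes of apoptosis and autophagy, 3 had unique regions of MP2_HDAC1_OE alone and 1 had unique regions of MP2_NTC alone, beside 6.28% and 5.24% of all coding genes. Those with MP2_HDAC1_OE-only regions alone were *AMBRA1*, *ATG2A*, a lipid transfer protein of autophagosomes, at percentile 70.7, and *BIRC3*, an inhibitor of apoptosis, at 38.5. *BAD*, which promotes apoptosis, had MP2_NTC-only regions alone at 11.2. *BIRC2*, the neighbour of *BIRC3*, had a shared region at 85.2 in MP2_HDAC1_OE and 37.5 in MP2_NTC, and *YAP1*, a coactivator of the Hippo pathway in the same stretch, was at 81.7 and 65.0. In the list of 13 genes of that stretch, which includes the matrix metalloproteinase cluster, 10 had no region in the promoter window.

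The remaining lists gave small counts, to be set beside the same shares. *CCND1*, which encodes cyclin D1, had MP2_HDAC1_OE-only regions alone, at percentile 26.0, and was the only such gene of 10 in its stretch, where 3 had a shared region. Among 13 imprinted genes or neighbours at 11p15, *PHLDA2* at percentile 32.0 and *KCNQ1* at 28.0 had MP2_HDAC1_OE-only regions alone, 0 had MP2_NTC-only regions alone and 8 had none. Of 8 lysosomal genes, *CTSD*, which encodes cathepsin D, at percentile 59.6 and *SMPD1*, an acid sphingomyelinase, at 40.5 had MP2_HDAC1_OE-only regions alone and 0 had MP2_NTC-only regions alone. Of 6 genes for handling of gemcitabine and other drugs, *RRM1*, the large subunit of ribonucleotide reductase, had MP2_HDAC1_OE-only regions alone at 68.9. Of 5 mucin genes only *MUC5B* had a region, which was shared, at 86.0 in MP2_HDAC1_OE and 67.9 in MP2_NTC.

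Checks on the lines used genes outside the chromosome as well. The strongest peak at the *HDAC1* promoter, on chromosome 1, was at percentile 93.9 in MP2_HDAC1_OE and 45.2 in MP2_NTC. Its window held 1 shared and 1 MP2_NTC-only region, with 2 peaks of each line. Of 6 markers of a pancreatic carcinoma line, *KRT18* and *VIM* had shared regions at their promoters. *KRT19* had separate unique regions of both lines, at percentile 42.8 in MP2_HDAC1_OE and 6.86 in MP2_NTC. *KRT8* had an MP2_HDAC1_OE-only region alone, at percentile 50.5, and no MP2_NTC peak. The epithelial adhesion genes *EPCAM* and *CDH1* had no region. The markers of other cell types, *PTPRC*, *CD3E*, *PECAM1* and *COL1A1*, had regions at 0 of 4 promoters.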

How the data were processed

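H3K27ac ChIP-sequencing of 2 samples and 2 no-antibody controls per line was processed by the authors with the ENCODE ChIP-seq pipeline. BWA 0.7.12, SAMtools, Picard 1.88 and hg38 are listed in the submitters' processing notes, and the peak caller is not given in the sources used here. The authors deposited 1 optimal list of reproducible peaks (IDR) per line, pooled over both samples. Each deposited peak has an interval, a signal value, whose scaling between lists is unknown, and a score, which was not used here. No read counts are in the lists, and the depth per sample is unknown.

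Peaks were merged where they shared 1 bp. Signals were used only as percentiles within a list. Gene positions and promoter sequences were from RefSeq (GRCh38.p14). The windows of 2 kb outside to 1 kb inside used the transcription starts of the promoter table for 953 of 1301 protein-coding genes on chromosome 11, and both gene ends for the others. The median intervals used order statistics. With 1 pooled list per line no test was possible. Alternatives covered overlap, peak sets, gaps, bins, ranking and promoter windows.

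The chromosome, its members and the gene lists were chosen with earlier results of these data known. Named regions are the 10 highest-ranked unique regions per line and the 5 largest shifts in each direction, and named genes are list members with unique regions of 1 line alone. Genes with a shared region or with unique regions of both lines that are named, and the 4 loci, were chosen after their values were seen.

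Computations used scipy 1.17.1, numpy 2.4.6, matplotlib 3.10.9 and pandas 2.3.3 in Python 3.11.15, and the scripts were tested on simulated data.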

Additional observations from a re-analysis of the deposited data

How the results depend on the processing

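No paired analysis was possible because each deposited list pools the H3K27ac samples, and leaving out a sample was likewise impossible. Over 10 values and 51 alternatives, 42 moved by less than their interval, 9 moved further and 0 changed direction. Single peaks that had to overlap by 50% of both gave 43.7% MP2_HDAC1_OE-only, 27% MP2_NTC-only and 59.2% MP2_HDAC1_OE-only among unique peaks of the long arm. Merging gaps of up to 500 bp gave 32.0% and 15.1% unique to each line. Bins with at least 20 regions gave 92.3% with more MP2_HDAC1_OE-only regions. The share of MP2_HDAC1_OE-only regions at a promoter was 65.2% with the 75% of peaks of highest signal. With protein-coding genes only, 64.8% of MP2_NTC-only and 82.1% of shared regions were at a promoter. The cause of these moves was not tested. By its share of MP2_HDAC1_OE-only among unique regions, chromosome 11 ranked 2 of 23 when single peaks were counted as shared from 1 bp of overlap, and 1 of 23 with the other 4 alternative peak sets. That share ran from 61.8% to 68.0% and the median rank shift from 4.59 to 7.98 points. Depth is unknown, so absence of a peak does not show absence of acetylation.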

Other observations

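MicroRNA genes were a group of chromosome 11 that no list above covered. Of 91 hairpins, 14 lay within 2 kb of an H3K27ac region, with a nearest region that was MP2_HDAC1_OE-only for 5, MP2_NTC-only for 2 and shared for 7. Over all regions of the chromosome these classes made up 35.3%, 18.2% and 46.4%, so the hairpins were close to the regions as a whole. MIR210, the hypoxia-responsive microRNA, lay 548 bp from a shared region at percentile 64.6 in MP2_HDAC1_OE and 43.9 in MP2_NTC. MIR4687 lay inside an MP2_HDAC1_OE-only region at percentile 50.6, and MIR4492 partly overlapped one at percentile 20.3. MIR6090 lay inside an MP2_NTC-only region at percentile 31.7. MIR611 lay inside the shared region at the *FEN1* promoter, at percentile 99.9 in MP2_HDAC1_OE and 97.7 in MP2_NTC.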
